A study of Mus musculus with 48 samples.

Results

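The genes described here are 52 mouse adhesion genes: integrin subunits, claudins and other tight junction genes, junctional adhesion molecules, cadherins, catenins, desmosome genes, adhesion molecules of the immunoglobulin (Ig) family, and the surface proteins CD44, CD36, CD24 and EMP2. They were chosen by name from a list and matched by Ensembl identifier among the 39017 genes counted. All 52 were matched. Of these, 41 reached a mean of 1 CPM (read count scaled to library size) or more in at least 1 of the 16 groups, as did 15181 genes of the whole series, and those 41 are reported in detail. The 11 that stayed below were Itga5, Itga9, Itgb6, Cldn3, Cldn4, Cldn6, Cldn7, Ocln, Cdh3, Cdh13 and Dsp. The nearest to the threshold were Itga7 (highest group mean 1.39 CPM) and Itgb4 (1.68 CPM) inside it, and Itga9 (0.676 CPM) and Itga5 (0.631 CPM) outside it. Cldn3, Cldn4, Cldn6, Cldn7 and Ocln, which encode tight junction strand proteins of many epithelia, and Dsp, the plaque protein that ties desmosomes to intermediate filaments, were among those below 1 CPM in every group.

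Integrins are cell surface receptors made of 1 alpha and 1 beta chain. They bind matrix proteins such as laminins, collagens, fibronectin and vitronectin and link them to the actin skeleton. Tight junctions seal the space between neighbouring cells and are built from claudins, occludin and junctional adhesion molecules on a scaffold of ZO proteins. Cadherins hold cells together by binding cadherins on the next cell and are anchored to actin by catenins, while desmosomal cadherins are anchored to intermediate filaments through plakoglobin and plakophilins. ALK7, encoded by Acvr1c, is a type I receptor of the TGF-β family that binds activin B among other ligands and signals through SMAD2 and SMAD3. Signals of this family are well known to change adhesion genes of epithelial cells.

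The RNA came from βTC3, a mouse insulinoma line, and AJ-5257-1 (called AJ), another mouse line derived from a pancreatic neuroendocrine tumour, and was sequenced in 16 groups of 3 libraries. In batch 1, cells of each line carrying the empty PB-33 plasmid (vector) were collected after 0, 2 and 24 h in doxycycline (dox) at 2 µg/ml. Cells carrying constitutively active ALK7 (ALK7-CA) on the inducible plasmid were collected after 2 and 24 h of the same dose. In batch 2, vector cells of each line without dox received no ligand or activin B at 50 ng/ml for 24 h, and AJ cells carrying the receptor ALK7 received 24 h of dox with or without the same ligand. The libraries are labelled as replicates of cells plated in triplicate, so the p-values measure the spread between such wells, which may be technical. No ALK7-CA library without dox was analysed here, so a difference between the transfected populations and an effect of the induced receptor cannot be told apart. AJ cells with ALK7 and without ligand also differed from their vector control in dox (24 h against 0 h).

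Total counts ran from 22149501 to 38848102 per library in batch 1 and from 17976628 to 25271203 in batch 2. All 10 endocrine cell markers checked averaged 1 CPM or more in both lines. Of markers of other cells, 1 of 7 fibroblast, 1 of 6 endothelial, 1 of 7 leukocyte, 0 of 6 acinar and 4 of 6 duct markers did so in βTC3, and 2, 1, 1, 1 and 1 in AJ. Col3a1, Cdh5, Cd3e, Ptf1a and Krt19, a defining marker of each of these 5 cell types, were below 0.05 CPM in both lines. In bulk RNA, fewer cells of a type and less RNA per cell cannot be told apart. Smad7, a direct target of SMAD signalling, was higher than in the matched control in every ALK7-CA and activin B group (for example 98.4 ± 5.40 against 9.24 ± 0.982 CPM in AJ at 24 h, SD, n = 3). Acvr1c read lower with ALK7-CA (3.70 ± 1.99 against 10.3 ± 0.966 CPM in AJ at 24 h) and 12.3 ± 1.76 against 10.3 ± 0.309 CPM in AJ cells with ALK7 and no ligand, and thus gives no check of the plasmid labels. Replicate 1 of the AJ ALK7-CA 24 h group stood apart. In it, 23 genes typical of βTC3 read at a median of 6.12% of their βTC3 level, against at most 0.230% in any other library for genes typical of the other line. Emp2, for example, read 3.40, 0.395 and 0.438 CPM in the libraries of that group, and Dsg2 read 0.960, 0.0359 and 0.0337 CPM. Without that library, 8 members rose and 13 fell with ALK7-CA at 24 h in AJ (20 of the 21 were also called with it). Leaving out any 1 library there gave 5347 to 6477 calls over all genes, against 6305 of 15487 with all. Several results that turn on that library are given below with and without it. Its removal also changed calls that are not detailed. These were the differences between lines in the ALK7-CA response of Jam3 and Alcam, and between times in AJ of Itgav, Cgn and Ctnnd1.

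Vector cells without dox or ligand show how the lines differed at rest. Of the 41 members, 10 were higher and 27 lower in AJ than in βTC3 among batch 1 vector cells without dox, and 11 were higher and 27 lower in batch 2 (edgeR quasi-likelihood test, adjusted p under 0.05). Of all genes tested, 35.6% were higher and 36.5% lower in AJ in batch 1, and 38.5% and 37.6% in batch 2. The direction did not hold for every member, as Cd24a was called lower in AJ in batch 1 and higher in batch 2. The median log2 difference (AJ minus βTC3) of the members was -0.92 in batch 1 and -0.87 in batch 2, beside 0.02 and 0.01 for all genes tested.

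**Figure D1:**
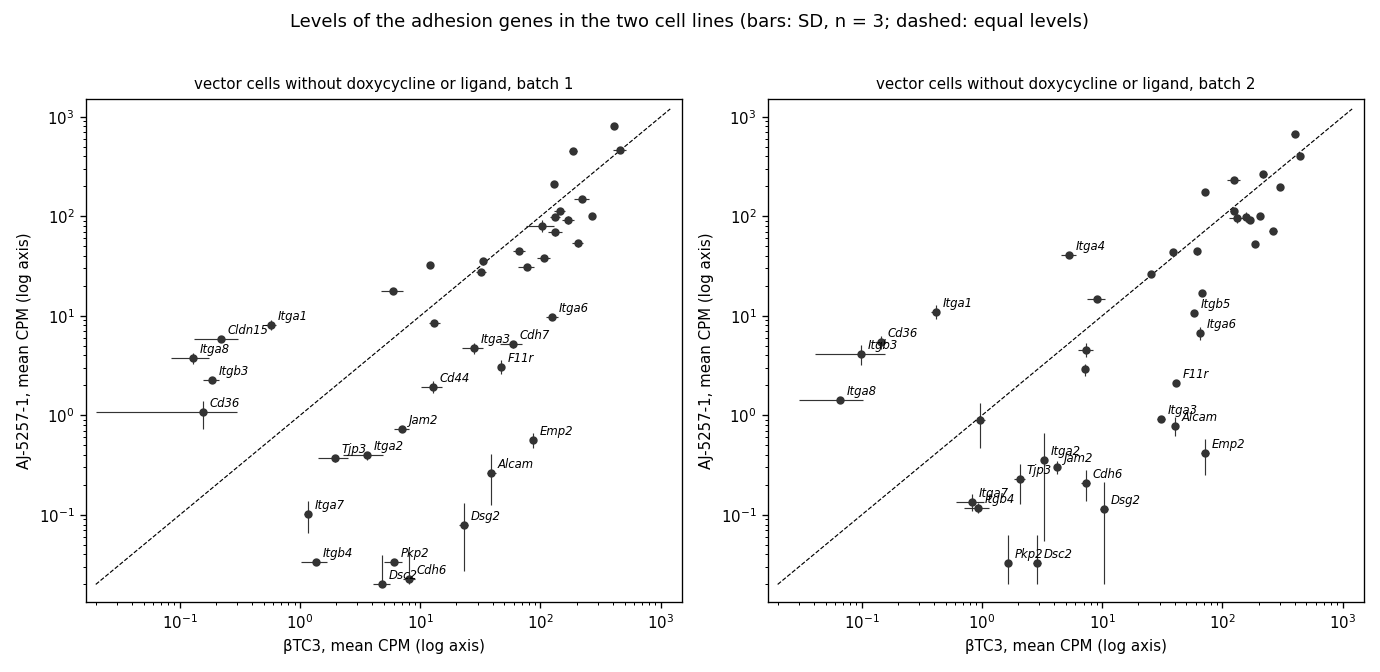
Mean level of each of the 41 members in βTC3 (horizontal) and AJ (vertical), in CPM on log axes, for vector cells without dox or ligand in batch 1 (left) and batch 2 (right). Each point is 1 gene, bars are SD with n = 3, means under 0.02 CPM are drawn at 0.02, and the dashed line marks equal levels. Names are given where the levels differ by more than 4-fold, and most named genes lie below the line, from Dsg2 and Emp2 far below it to Itga1, Itga8, Itgb3 and Cd36 above it.

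Desmosome genes were far lower in AJ. Dsg2, which encodes the desmosomal cadherin desmoglein 2, read 23.3, 20.9 and 24.8 CPM in the βTC3 libraries of batch 1 and 0.0704, 0.136 and 0.0323 CPM in AJ. Its desmosomal partner Dsc2 (desmocollin 2) was covered by 366 reads in βTC3 and 1 read in AJ, a ratio of 411 with a 95% counting interval of 73.2 to 16260. Pkp2, the plakophilin that joins these cadherins to the plaque, gave a ratio of 172 (58.5 to 837, counting error only) on 460 and 3 reads. The libraries of the lines did not overlap for any of these genes, and the same order held in batch 2 (Dsg2 10.4 ± 0.809 against 0.114 ± 0.0991 CPM, SD, n = 3). The ratios in batch 2 were 79.4 (21.7 to 660) for Dsc2 and 45.4 (12.3 to 380) for Pkp2. They lie below those of batch 1, with counting intervals that overlap. Jup, which encodes plakoglobin and serves both desmosomes and adherens junctions, was well expressed in both lines (102 to 156 CPM in βTC3 and 80.4 to 99.3 CPM in AJ as means without dox).

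Emp2, a tetraspan membrane protein that affects which integrins reach the surface, was 150-fold lower in AJ in batch 1 (0.566 ± 0.0993 against 86.2 ± 3.81 CPM, SD, n = 3) and 173-fold lower in batch 2. Alcam, an Ig-family molecule, was 140-fold lower in batch 1. In that batch Cdh6 (K-cadherin) was at 619 reads in βTC3 and 2 in AJ, a ratio of 347 with a counting interval of 95.7 to 2873. In batch 2, at lower depth, 12 reads covered Cdh6 in AJ, so the ratio of 347 is that of batch 1 only. F11r, which encodes JAM-A, was 15-fold lower in AJ (3.09 ± 0.496 against 47.0 ± 1.83 CPM), and Jam2 was 9.44-fold lower. In the other direction, Itga8 was 27.8-fold, Itga1 14.3-fold, Itgb3 12.1-fold and Cd36 7.24-fold higher in AJ in batch 1. Itgb3 pairs with Itgav in the vitronectin receptor, Itga1 encodes a collagen-binding chain, and CD36 is a scavenger receptor that also binds thrombospondin. Among the most abundant members, Ctnnb1 (β-catenin) was 2.00-fold higher and Ctnna1 (α-catenin) 2.66-fold lower in AJ, while Itgb1 (the common beta chain) averaged 458 CPM in βTC3 and 466 CPM in AJ in batch 1 and did not pass there. In batch 2 Itgb1 passed as lower in AJ (log2 difference -0.12, adjusted p 0.0260), a call lost without any of 4 of the 6 libraries (highest adjusted p 0.0853) and with no low-count filter.

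Levels of different integrins can be set side by side only per length of transcript. In CPM per kb of exon, Itgb1 led in both lines (112 ± 14.2 in βTC3 and 114 ± 5.67 in AJ, SD, n = 3, batch 1 without dox). In βTC3 it was followed by Itgb5 (21.6 ± 3.41), Itgav (15.8 ± 1.85), Itga6 (13.9 ± 1.65) and Itga3 (4.86 ± 0.962), where Itgav and Itga6 did not differ beyond their spread. In AJ the order was Itgb5 (8.70 ± 0.245) and Itgav (8.64 ± 0.800), which did not differ beyond their spread, then Itga4 (1.28 ± 0.0591), Itga6 (1.08 ± 0.0307) and Itga3 (0.826 ± 0.102). The laminin-binding chains Itga6 and Itga3 thus ranked above Itga4, a chain that binds fibronectin and VCAM-1, in βTC3 but not in AJ.

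Against these levels, many members differed in both directions between ALK7-CA or activin B groups and their controls. The groups of the 7 comparisons of ALK7-CA or activin B with a matched control share no library. Comparisons within the same line and batch do share an estimate of the spread, so their p-values are not fully independent. In these 7, 35 of the 41 members passed the test in at least 1, as did 62.4% of all genes that were tested and reached 1 CPM in a group. Of these, 17 were called only as rises, 13 only as falls and 5 in both directions. With ALK7-CA at 24 h, 12 members rose and 6 fell of 39 tested in βTC3, where 8.02% of all genes rose and 5.48% fell. In AJ at 24 h, 9 rose and 13 fell of 35 tested, against 20.8% and 19.9% of all genes. At 2 h, 1 member rose and 0 fell of 39 in βTC3 (1.25% and 0.272% of all genes), and 7 rose and 7 fell of 35 in AJ (8.24% and 7.54%). With activin B, 12 rose and 10 fell of 38 in βTC3 (12.3% and 9.97%), 8 rose and 7 fell of 33 in AJ vector cells (11.6% and 10.9%), and 7 rose and 8 fell of 33 in AJ cells with ALK7 (16.5% and 16.3%). The median log2 change of the tested members lay between -0.02 and 0.04 in all 7, beside -0.01 to 0.01 for all genes tested.

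The count of 0 falls in βTC3 at 2 h is that of the edgeR test. At an unadjusted edgeR p under 0.05, 7 members were higher and 2 lower there. The share of all genes at that level was not counted, so these numbers have no background to stand beside. DESeq2 called 1 rise (Jam2) and 1 fall (Ctnna1) there, and 375 genes in all. Same-numbered libraries deviated together there (r over 0.1 in every pair), and with the number as a block 6 rose and 2 fell, where 7.19% of all genes passed in either direction: Jam2, Itga6 (log2 change 0.27, adjusted p 0.00418), Itgav, Cdh4, Cdh8 and Dsc2 as rises, and Ctnna1 and Emp2 as falls. The numbers were also taken to pair the libraries in 3 other comparisons. There the block called 27.9% (βTC3 at 24 h), 25.2% (AJ at 2 h) and 29.7% (βTC3 with activin B) of all genes in either direction. In none of these comparisons, nor in βTC3 at 2 h, did every library correlate best with its own number. Whether the numbers mark real pairs is thus not known, and results with the block are given as an alternative only. In βTC3 at 24 h the block brought 6 more members past the threshold, with Jup (log2 change 0.68, adjusted p 4.86e-06 in edgeR, from 0.0676 without the block), Ctnnb1 and Ctnnd1 as rises and Cldn1, Cdh4 and Cadm1 as falls. In AJ at 2 h it brought 7 more, with Itgb1, Cldn1, Cdh4 and Ctnnb1 as rises and Cldn12, F11r and Cd24a as falls. In βTC3 with activin B it added Tjp1, Ncam1, Ctnna1 and Ctnnb1 as rises and Cadm1 as a fall, and Itga1 lost its call.

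**Figure D2:**
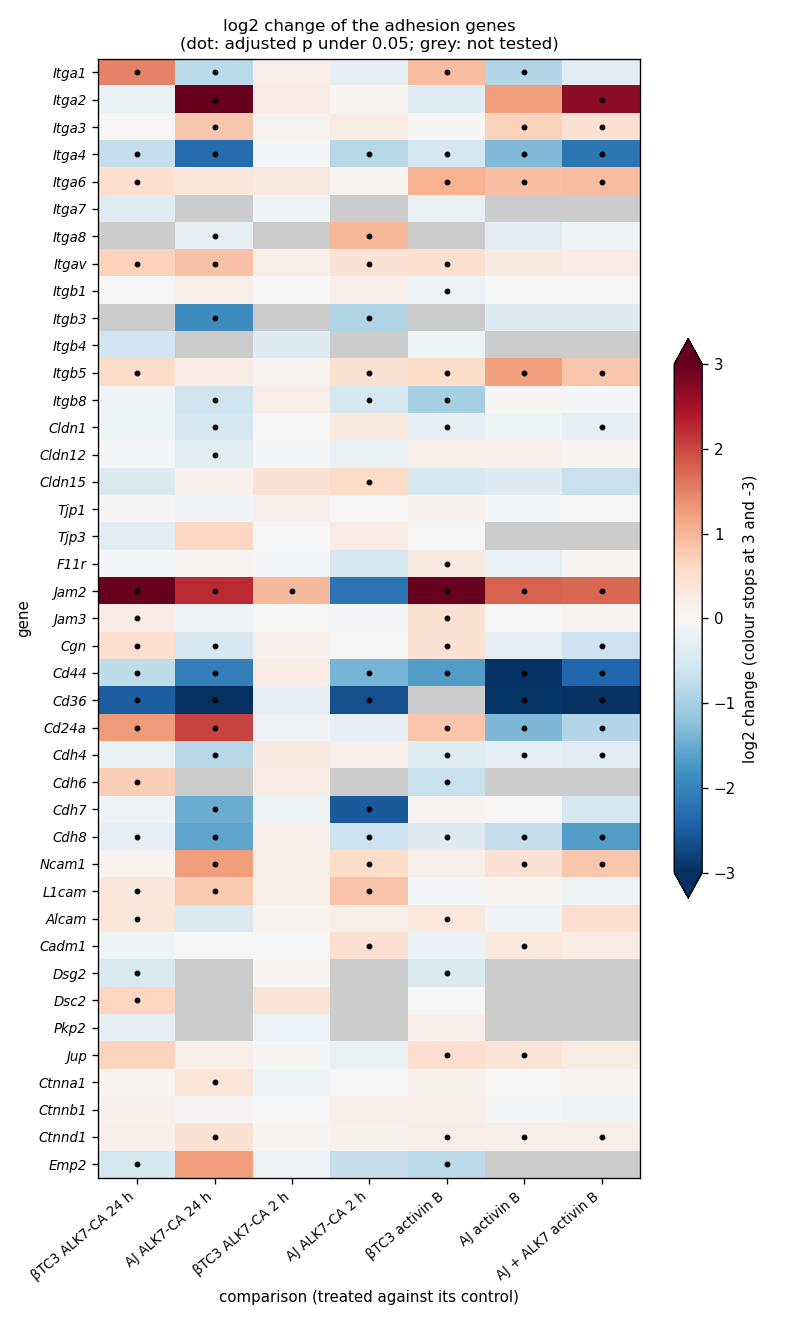
log2 change of the 41 members (vertical) in the 7 comparisons of ALK7-CA or activin B with their controls (horizontal). Red is higher and blue lower with the receptor or ligand, dots mark an adjusted p under 0.05, and grey cells were not tested because the counts were too low. Jam2 is red in 6 of 7 columns with a dot, Itga4, Cd44 and Cdh8 are blue with a dot in 6 of 7, Itga1 differs in colour between the lines with ALK7-CA at 24 h and with activin B, and Cd24a with activin B.

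Among the integrin alpha chains, Itgav, whose product pairs with several beta chains and binds vitronectin and latent TGF-β, rose in both lines with ALK7-CA at 24 h. It read 217, 211 and 251 CPM against 138, 130 and 160 CPM in βTC3 (log2 change 0.68, SE 0.10, adjusted p 0.000435) and 137, 142 and 144 against 71.2, 69.6 and 89.8 CPM in AJ (0.87, SE 0.10, adjusted p 1.33e-05). In each line all ALK7-CA libraries were above all vector libraries. It also rose in AJ at 2 h and in βTC3 with activin B, while its log2 change with activin B was 0.27 in AJ vector cells (adjusted p 0.0889) and 0.23 in AJ cells with ALK7 (adjusted p 0.121).

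Itga2, on chromosome 13 (GRCm38, chr13:114833081-114932100, minus strand), encodes the collagen and laminin-binding α2 chain and was the member with the largest rise in AJ. It read 11.9, 12.6 and 11.3 CPM with ALK7-CA at 24 h and 0.284, 0.229 and 0.334 CPM in the vector libraries, 41.8-fold (log2 change 5.38, SE 0.19, adjusted p 1.35e-10). At 2 h it was 0.442, 0.437 and 0.582 CPM against 0.597, 0.459 and 0.350 CPM, and the groups overlapped. In βTC3, where it was expressed without induction, it read 3.64, 2.90 and 3.38 CPM with ALK7-CA at 24 h and 3.96, 4.15 and 3.37 CPM in vector cells, so the AJ level rose past that of βTC3. The difference between the lines in this response passed the test (log2 5.58, SE 0.22, adjusted p 7.54e-08), and so did that between 24 h and 2 h in AJ (5.33, SE 0.28, adjusted p 3.05e-08). Activin B raised it in AJ cells with ALK7, from 0.294, 0.553 and 0.215 to 2.02, 2.12 and 2.63 CPM (log2 change 2.67, SE 0.46, adjusted p 0.000744). In AJ vector cells it read 0.356, 0.658 and 0.0549 CPM without and 0.922, 0.585 and 1.09 CPM with the ligand (log2 change 1.25, adjusted p 0.104). The difference between those responses was 1.42 (SE 0.72, adjusted p 0.458).

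Itga4 (chr2:79255426-79333123, plus strand) fell in 6 of the 7 comparisons. In AJ it went from 17.6, 12.9 and 20.2 CPM in vector cells to 3.44, 3.59 and 3.16 CPM with ALK7-CA at 24 h (log2 change -2.32, SE 0.15, adjusted p 3.98e-08), and from 19.99, 16.5 and 15.9 to 9.73, 9.42 and 10.6 CPM at 2 h. In βTC3 it went from 4.11, 4.65 and 4.36 to 2.99, 2.23 and 2.72 CPM at 24 h (log2 change -0.71, SE 0.15, adjusted p 0.00449). No library of a treated group reached its controls in these comparisons. With activin B it fell from 42.5, 41.6 and 39.5 to 17.8, 15.6 and 16.1 CPM in AJ vector cells and from 29.3, 28.4 and 27.9 to 5.88, 6.89 and 6.06 CPM in AJ cells with ALK7 (log2 changes -1.32, SE 0.07, adjusted p 9.01e-08, and -2.18, SE 0.07, adjusted p 1.91e-09). The fall was larger in AJ than in βTC3 with ALK7-CA (difference -1.61, SE 0.24, adjusted p 0.00078) and larger in AJ cells with ALK7 than in vector cells with activin B (difference -0.86, SE 0.10, adjusted p 0.000729). In βTC3 with activin B its log2 change of -0.54 (SE 0.13, adjusted p 0.0232) lost the call when any of 4 of the 6 libraries was left out (highest adjusted p 0.0812). About 8.0% of its exon bases overlap Cerkl on the opposite strand, and no source used here gives the strand setting of the counting.

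The promoters of these 3 alpha chains are shown because they cover the patterns seen, a rise in both lines (Itgav), a rise in AJ (Itga2) and falls in both lines (Itga4). Itgav was picked by its rise, and Itga2 and Itga4 were picked after their values were seen. Each is the RefSeq window of GRCm38.p6 from 250 bases before to 50 bases after the gene's start, 5′ to 3′ on the gene's strand: Itgav at chr2:83724147-83724446 (plus strand), Itga2 at chr13:114932051-114932350 (minus strand) and Itga4 at chr2:79255176-79255475 (plus strand). Capitals mark CAGAC, the SMAD-binding CAGA form, on either strand (GTCTG on the other).
Itgav: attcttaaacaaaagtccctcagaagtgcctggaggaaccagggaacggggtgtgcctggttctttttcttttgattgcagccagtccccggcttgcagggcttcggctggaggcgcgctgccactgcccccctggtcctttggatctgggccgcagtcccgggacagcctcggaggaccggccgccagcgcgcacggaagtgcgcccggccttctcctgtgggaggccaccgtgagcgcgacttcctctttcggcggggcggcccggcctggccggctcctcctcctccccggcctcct
Itga2: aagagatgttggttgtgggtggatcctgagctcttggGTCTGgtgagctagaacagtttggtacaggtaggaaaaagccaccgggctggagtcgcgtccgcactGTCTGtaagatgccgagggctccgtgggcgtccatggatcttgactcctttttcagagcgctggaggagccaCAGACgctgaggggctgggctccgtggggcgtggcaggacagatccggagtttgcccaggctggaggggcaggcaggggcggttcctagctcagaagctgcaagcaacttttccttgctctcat
Itga4: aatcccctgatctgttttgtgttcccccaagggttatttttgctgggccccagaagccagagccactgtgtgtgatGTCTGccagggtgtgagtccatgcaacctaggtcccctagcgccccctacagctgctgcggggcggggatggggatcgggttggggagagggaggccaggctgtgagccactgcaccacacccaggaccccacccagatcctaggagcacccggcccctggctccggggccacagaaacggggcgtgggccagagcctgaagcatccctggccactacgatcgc
CAGAC occurred 3 times in the Itga2 window, 1 time in that of Itga4 and not in that of Itgav. It was also absent from the windows of L1cam, Cd44 and F11r, which were searched but are not printed. It was present in 49.6% of the 32851 windows of the table and in 44.4% of the 36 windows of the 27 reported members that have one. The longer palindrome GTCTAGAC was in 0 of those 36 windows and in 0.213% of all. No match says only that these letters are absent from this window. Cd24a, which rose more than Itgav in both lines with ALK7-CA at 24 h, and Jam2 have no window.

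Itga1 (chr13:114953096-115101964, minus strand), the α1 collagen-binding chain, moved in opposite directions in the lines. In βTC3 it read 2.16, 2.15 and 1.91 CPM with ALK7-CA at 24 h against 0.675, 0.758 and 0.806 CPM (log2 change 1.49, SE 0.27, adjusted p 0.0019). The AJ libraries read 3.96, 4.41 and 3.91 against 7.61, 5.08 and 8.90 CPM (-0.81, SE 0.17, adjusted p 0.0017). The groups did not overlap in either line, and the difference between the lines was -2.31 (SE 0.28, adjusted p 0.000209). With activin B the log2 change was 0.92 in βTC3 (SE 0.27, adjusted p 0.0423) and -0.89 in AJ (SE 0.13, adjusted p 0.000364), with a difference of -1.81 (SE 0.25, adjusted p 0.000676). The βTC3 call with activin B rests on levels under 1 CPM and was lost when any of the 6 libraries was left out (highest adjusted p 0.146), with DESeq2 (0.291), with no low-count filter (0.0681) and with the replicate block (0.0655).

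Itga6, whose product forms laminin receptors with β1 or β4, rose with activin B in all 3 populations. It went from 61.9, 68.5 and 65.3 to 134, 129 and 136 CPM in βTC3 (log2 change 1.04, SE 0.05, adjusted p 5.52e-06), by 0.91 in AJ vector cells (SE 0.12, adjusted p 0.000144) and by 0.93 in AJ cells with ALK7 (SE 0.12, adjusted p 6.49e-05). With ALK7-CA at 24 h it rose in βTC3 from 117, 112 and 125 to 162, 165 and 169 CPM (0.50, SE 0.08, adjusted p 0.000414). In AJ it read 20.1, 9.83 and 10.2 CPM against 10.4, 9.70 and 11.7 CPM, where the high value is the library that holds βTC3 transcripts. Without that library the log2 change in AJ was -0.08 and the difference between the lines passed the test (-0.59, adjusted p 0.00422), which it did not with it (-0.17, adjusted p 0.77).

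Itga3, another laminin-binding chain, rose in AJ with ALK7-CA at 24 h from 6.595, 4.65 and 5.62 to 11.04, 9.68 and 8.89 CPM (log2 change 0.81, SE 0.16, adjusted p 0.00122), and its response differed between the lines (0.83, SE 0.20, adjusted p 0.0151). Its calls with activin B were a log2 change of 0.68 in AJ vector cells and 0.46 in AJ cells with ALK7. They were lost with DESeq2 (adjusted p 0.108 and 0.135), without any of 4 of the 6 libraries in vector cells (highest edgeR adjusted p 0.249) and without any of the 6 in cells with ALK7 (0.136). Itga8, which binds fibronectin and nephronectin, rose in AJ at 2 h from 3.69, 4.16 and 3.82 to 7.62, 7.82 and 8.04 CPM (1.00, SE 0.11, adjusted p 3.05e-05). At 24 h it was 3.40, 3.19 and 3.43 CPM against 4.10, 3.64 and 4.58 CPM (-0.30, adjusted p 0.0477), a call lost without any of 5 of the 6 libraries (highest adjusted p 0.174). The 24 h and 2 h responses differed (-1.29, SE 0.15, adjusted p 4.73e-05). Itga7 was near 1 CPM in βTC3 and passed no receptor or ligand comparison.

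Among the beta chains, Itgb5, which pairs with αv, rose in 5 of the 7 comparisons. With activin B it went from 60.2, 57.5 and 57.0 to 84.9, 86.3 and 82.3 CPM in βTC3 (log2 change 0.55, SE 0.04, adjusted p 5.19e-05), from 11.2, 10.2 and 10.4 to 24.7, 23.0 and 27.8 CPM in AJ vector cells (1.24, SE 0.08, adjusted p 3.4e-07), and from 28.9, 32.6 and 29.9 to 54.1, 53.1 and 56.1 CPM in AJ cells with ALK7 (0.84, SE 0.07, adjusted p 2.39e-06). The groups did not overlap in any of the 3 populations, and the rise was larger in AJ vector cells than in βTC3 (0.70, SE 0.09, adjusted p 0.000431). With ALK7-CA at 24 h it rose in βTC3 (0.55, SE 0.13, adjusted p 0.0102, highest adjusted p 0.0573 with a library left out), and in AJ it read 34.9, 31.4 and 34.5 against 29.3, 31.4 and 25.2 CPM without passing.

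Itgb3, at 2.52, 2.65 and 2.61 CPM in AJ vector cells after 24 h of dox, fell to 0.720, 0.717 and 0.673 CPM with ALK7-CA (log2 change -1.88, SE 0.14, adjusted p 2.21e-07), and by 0.90 at 2 h (SE 0.14, adjusted p 0.000482). It was not tested in the βTC3 treatment comparisons, where it stayed at or below 0.326 CPM in every library. Itgb8, whose product with αv activates latent TGF-β, fell in AJ with ALK7-CA at 24 h from 6.44, 6.16 and 8.66 to 4.32, 4.66 and 5.05 CPM (-0.60, SE 0.13, adjusted p 0.00198). In βTC3 it fell with activin B from 7.39, 8.38 and 6.33 to 4.57, 3.58 and 2.79 CPM (-0.99, SE 0.18, adjusted p 0.00643). Itgb1 varied little: its log2 change was between -0.16 and 0.19 in all 7 comparisons, and it passed only in βTC3 with activin B (-0.16, SE 0.03, adjusted p 0.0105), where leaving out replicate 1 of the activin B libraries gave an adjusted p of 0.0507. With the replicate block it also passed in AJ with ALK7-CA at 2 h (0.18, adjusted p 0.0120). Itgb4 read 0.280, 0.574 and 0.135 CPM with ALK7-CA at 24 h in AJ, against 0.126, 0.0655 and 0.1003 CPM, and 1.15, 0.994 and 1.21 against 1.85, 1.88 and 1.32 CPM in βTC3. Only the difference of these responses passed (2.27, SE 0.60, adjusted p 0.0234), and it was lost without any of 3 of the 12 libraries (highest adjusted p 0.0895).

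**Figure D3:**
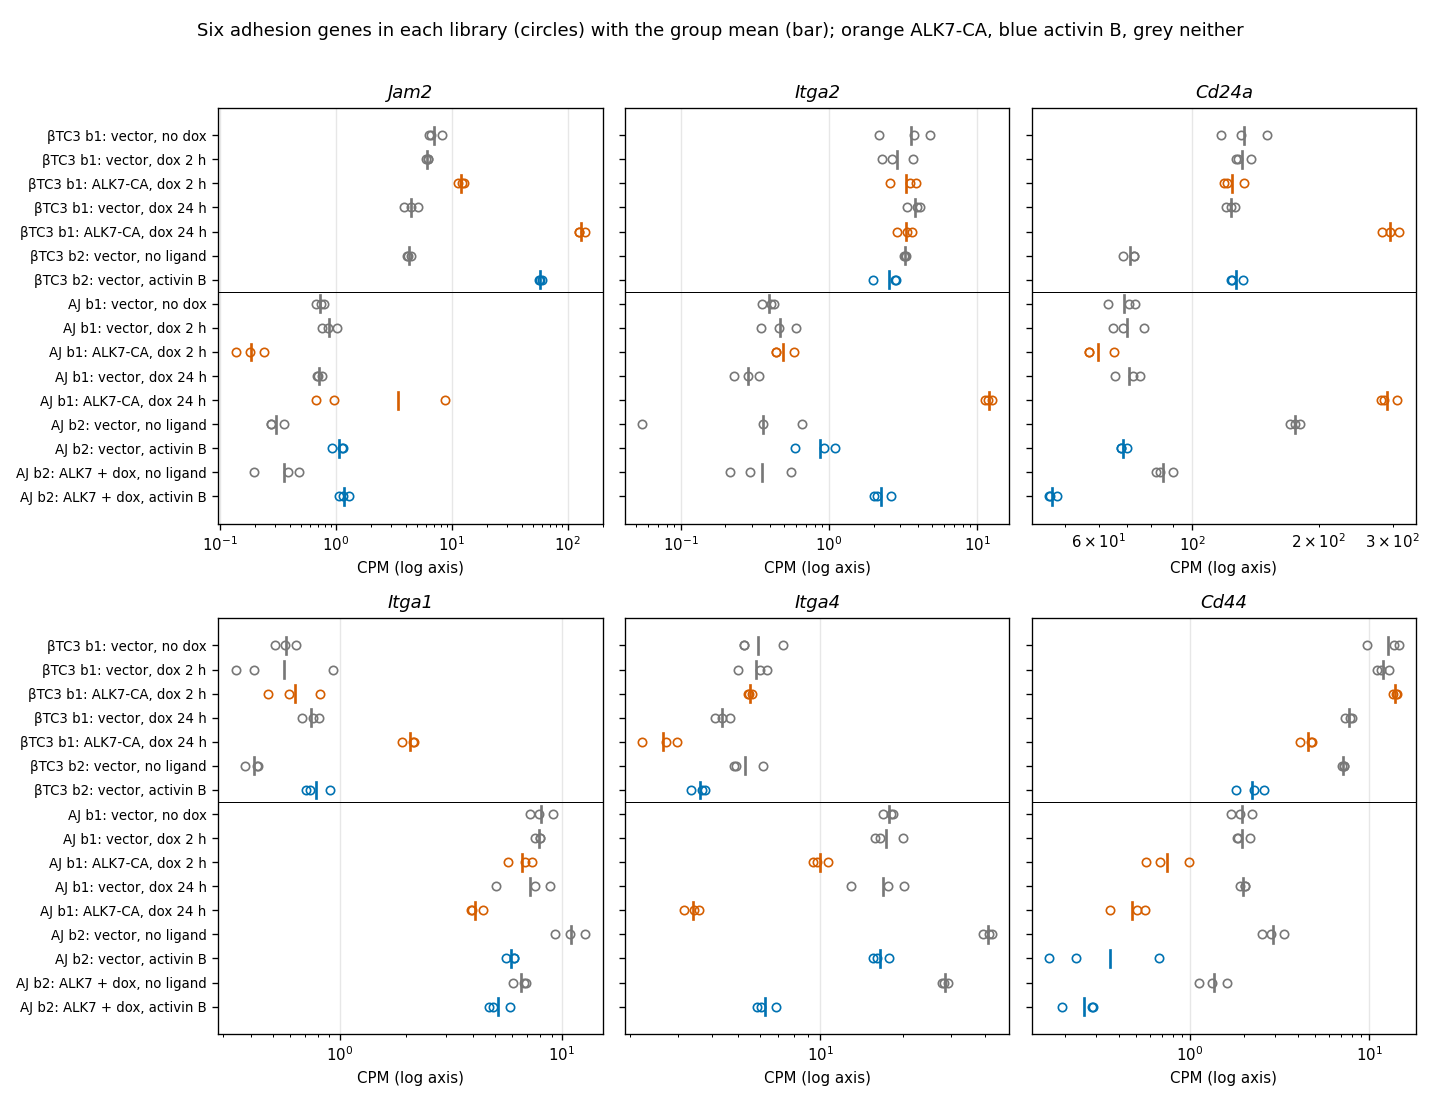
Level of Jam2, Itga2, Cd24a, Itga1, Itga4 and Cd44 in every library, in CPM on log axes, with 1 row per group (b1 and b2 are batches 1 and 2). Circles are libraries, bars are group means, orange marks ALK7-CA, blue marks activin B and grey neither. For Jam2, 1 of the 3 AJ ALK7-CA 24 h libraries, at 8.72 CPM, lies apart from the other 2 at 0.968 and 0.673 CPM.

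The junctional adhesion molecules are Ig-like proteins at tight junctions and at contacts between leukocytes and endothelium. Jam2, which encodes JAM-B (chr16:84774123-84825928, plus strand), had the largest rise of any member in βTC3. It read 126, 125 and 142 CPM with ALK7-CA at 24 h against 3.88, 4.44 and 5.05 CPM, 29.7-fold (log2 change 4.89, SE 0.11, adjusted p 7.97e-12). At 2 h it was the sole member past the threshold, at 12.1, 11.4 and 12.7 against 6.28, 5.95 and 6.17 CPM (0.98, SE 0.10, adjusted p 0.000255), and the 24 h response was larger than that at 2 h (3.91, SE 0.14, adjusted p 3.21e-09). Activin B raised it in βTC3 from 4.18, 4.46 and 4.08 to 57.4, 57.1 and 60.2 CPM (3.79, SE 0.07, adjusted p 8.02e-08). In each of these comparisons every treated library was above every control.

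In AJ Jam2 stayed at or below 1.30 CPM in all libraries but the one that holds βTC3 transcripts. Activin B raised it from 0.356, 0.274 and 0.274 to 0.922, 1.13 and 1.15 CPM in vector cells (log2 change 1.78, SE 0.29, adjusted p 0.000891) and from 0.196, 0.387 and 0.483 to 1.30, 1.16 and 1.05 CPM in cells with ALK7 (1.72, SE 0.28, adjusted p 0.000557). The ligand's effect was smaller than in βTC3 (-2.01, SE 0.22, adjusted p 0.000611). With ALK7-CA at 24 h the libraries read 8.72, 0.968 and 0.673 CPM against 0.757, 0.688 and 0.702 CPM, and the groups overlapped. The call there (log2 change 2.25, SE 0.72, adjusted p 0.0237) ended without the first of these libraries (0.19, adjusted p 0.63). Without it, the effect was smaller than in βTC3 (difference -4.72, adjusted p 9.23e-07). At 2 h Jam2 read 0.136, 0.180 and 0.240 CPM against 1.02, 0.756 and 0.846 CPM, groups that do not overlap but did not pass (-2.22, SE 0.92, adjusted p 0.135). With DESeq2 (-2.25, adjusted p 0.0242) and with only the groups compared (-2.23, edgeR adjusted p 0.00313) this fall passed, and in the other alternatives the adjusted p ran from 0.0788 to 0.271. The difference between 24 h and 2 h in AJ was 4.47 (SE 1.17, adjusted p 0.0149) with the library and 2.41 (adjusted p 0.000244) without it.

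F11r rose in βTC3 with activin B from 41.8, 40.4 and 40.5 to 51.6, 48.9 and 47.3 CPM (log2 change 0.28, adjusted p 0.00496) and in no other of the 7 comparisons, although with the replicate block its log2 change of -0.54 in AJ at 2 h did (adjusted p 0.0303). Jam3, which encodes JAM-C, rose by 0.45 in βTC3 with activin B (SE 0.05, adjusted p 0.000289) and by 0.25 with ALK7-CA at 24 h (SE 0.06, adjusted p 0.011, highest adjusted p 0.057 with a library left out). In AJ it lay between 31.7 and 46.8 CPM in all libraries and passed none of these comparisons.

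Of the tight junction scaffold, Tjp1 (ZO-1) was expressed at 129 to 331 CPM in all libraries and passed none of the 7 comparisons, with log2 changes from -0.07 to 0.16. With the replicate block it passed in βTC3 with activin B (0.11, adjusted p 0.0238). Cgn, which encodes cingulin, a link between the ZO scaffold and actomyosin, rose in βTC3 and fell in AJ. With ALK7-CA at 24 h it read 44.1, 47.7 and 40.2 against 31.9, 32.5 and 31.0 CPM in βTC3 (0.48, SE 0.10, adjusted p 0.00334) and 17.8, 15.6 and 13.2 against 24.0, 23.2 and 19.3 CPM in AJ (-0.51, SE 0.12, adjusted p 0.004). With activin B it rose in βTC3 (0.43, SE 0.06, adjusted p 0.00134) and fell in AJ cells with ALK7 (-0.62, SE 0.10, adjusted p 0.000344). The groups did not overlap in any of these 4 comparisons.

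Of the claudins, Cldn1, Cldn12 and Cldn15 reached 1 CPM in a group. Cldn1, a sealing claudin, fell in AJ with ALK7-CA at 24 h from 46.6, 50.0 and 58.3 to 41.1, 32.5 and 35.5 CPM (log2 change -0.51, SE 0.10, adjusted p 0.00116). Its falls with activin B were -0.25 in βTC3, where the groups overlapped and the call was lost without any of 4 of the 6 libraries (highest adjusted p 0.134), and -0.26 in AJ cells with ALK7 (adjusted p 0.00136). With the replicate block it passed as higher in AJ at 2 h (0.30, adjusted p 0.0255) and as lower in βTC3 at 24 h (-0.14, adjusted p 0.00683). Cldn12 lay between 31.2 and 74.4 CPM throughout and passed in 1 comparison, AJ with ALK7-CA at 24 h (-0.34, SE 0.08, adjusted p 0.00359), and with the replicate block also in AJ at 2 h (-0.19, adjusted p 0.0398). Cldn15, a pore-forming claudin, passed with dox alone in both lines and in opposite directions. It rose in βTC3 vector cells from 0.157, 0.319 and 0.178 CPM without dox to 1.204, 0.830 and 0.879 CPM after 24 h (2.19, SE 0.33, adjusted p 0.000472), and fell in AJ vector cells from 5.77, 5.93 and 5.88 to 1.36, 1.31 and 1.27 CPM (-2.15, SE 0.17, adjusted p 4.33e-05). Vector cells of batch 2 without dox read near these 24 h levels in βTC3 and near or below them in AJ, as given under Other observations. The level without dox thus differed between the batches, and whether that bears on the dox calls was not tested. With the receptor or ligand Cldn15 passed in AJ ALK7-CA cells at 2 h (0.57, SE 0.16, adjusted p 0.0255), a call lost without any of 3 of the 6 libraries (highest adjusted p 0.125).

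Several cadherins fell. Cdh8, a type II cadherin best known in neurons, fell in 6 of the 7 comparisons. In AJ with ALK7-CA at 24 h it went from 38.0, 38.5 and 41.8 to 16.6, 11.9 and 11.1 CPM (log2 change -1.58, SE 0.13, adjusted p 4.18e-07), and with activin B from 41.5, 38.4 and 37.2 to 11.51, 12.9 and 12.3 CPM in cells with ALK7 (-1.67, SE 0.08, adjusted p 3.45e-08). In AJ vector cells the fall with activin B was 0.71 on the log2 scale (SE 0.08, adjusted p 4.27e-05), smaller than with ALK7 by 0.95 (SE 0.12, adjusted p 0.000906). In βTC3 the changes were -0.40 with activin B (SE 0.04, adjusted p 0.000271) and -0.26 with ALK7-CA at 24 h (adjusted p 0.02, highest adjusted p 0.067 with a library left out), and the ALK7-CA effect was stronger in AJ (-1.32, SE 0.18, adjusted p 0.000381). Cdh4 (R-cadherin) fell in AJ with ALK7-CA at 24 h from 123, 105 and 112 to 68.9, 64.4 and 57.2 CPM (-0.84, SE 0.09, adjusted p 3.31e-06), and by 0.29 to 0.35 with activin B in all 3 populations.

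Cdh7, another type II cadherin, was lower in AJ cells carrying either receptor plasmid, without ligand. With ALK7-CA it read 0.748, 1.00 and 1.34 CPM after 2 h of dox against 5.83, 5.45 and 6.30 CPM in vector cells (log2 change -2.52, SE 0.40, adjusted p 0.000636). In AJ cells with ALK7 and no ligand it read 1.42, 2.05 and 1.18 CPM against 16.8, 18.0 and 16.3 CPM (-3.47, SE 0.16, adjusted p 2.77e-08). With activin B in vector cells it did not pass (-0.02, adjusted p 0.943). At 24 h of ALK7-CA it read 4.001, 0.968 and 1.21 against 5.74, 5.64 and 5.72 CPM (-1.48, SE 0.38, adjusted p 0.00644), the high value being the library that holds βTC3 transcripts. In βTC3 the libraries read 47.2 to 73.1 CPM in ALK7-CA and activin B groups, no change passed, and without that library the AJ change was -2.38 (adjusted p 1.08e-06) and lower than that in βTC3 by a difference of -2.29 (adjusted p 7.69e-06). Cdh6 in βTC3 rose with ALK7-CA at 24 h from 6.14, 5.27 and 4.94 to 8.65, 9.82 and 8.44 CPM (0.73, SE 0.12, adjusted p 0.000664) and fell with activin B from 6.74, 8.0 and 7.20 to 3.90, 4.85 and 4.96 CPM (-0.67, SE 0.13, adjusted p 0.00757). The controls differ between those results: vector cells at 24 h of dox were below vector cells without dox, at 8.61, 7.02 and 8.77 CPM (-0.56, SE 0.12, adjusted p 0.00385).

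The catenins anchor cadherins. Ctnnb1 passed none of the 7 comparisons, with log2 changes from -0.10 to 0.14. With the replicate block it passed in βTC3 with ALK7-CA at 24 h (0.10, adjusted p 0.0240) and with activin B (0.14, adjusted p 0.00516), and in AJ at 2 h (0.14, adjusted p 0.0125). About 14.6% of its exon bases overlap Ulk4 on the opposite strand. Ctnna1 rose in AJ with ALK7-CA at 24 h from 110, 109 and 109 to 143, 141 and 140 CPM (0.37, SE 0.04, adjusted p 2.25e-06), with no overlap between the groups. Ctnnd1 (p120 catenin), which holds cadherins at the surface, rose in that comparison by 0.43 (SE 0.08, adjusted p 0.000424) and by 0.18 to 0.20 with activin B in all 3 populations. Its activin B call in βTC3 was lost without any of 4 of the 6 libraries (highest adjusted p 0.121), and that in AJ vector cells with only the groups compared (adjusted p 0.0557). Jup rose with activin B in βTC3 from 158, 147 and 163 to 227, 206 and 226 CPM (0.50, SE 0.06, adjusted p 0.000624) and in AJ vector cells by 0.38 (adjusted p 0.0118), a call lost without either of 2 of the 6 libraries (highest adjusted p 0.0526).

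The desmosome genes could be tested for treatment only in βTC3. Dsg2 fell with ALK7-CA at 24 h from 20.5, 20.6 and 20.5 to 15.4, 14.1 and 15.1 CPM (log2 change -0.45, SE 0.07, adjusted p 0.000686) and with activin B from 9.82, 11.3 and 10.1 to 7.39, 8.39 and 7.27 CPM (-0.42, SE 0.10, adjusted p 0.0169), the latter lost without any of 3 of the 6 libraries (highest adjusted p 0.0730). Dsc2 rose with ALK7-CA at 24 h from 2.79, 2.99 and 3.08 to 4.29, 4.29 and 5.25 CPM (0.66, SE 0.15, adjusted p 0.00722), which is near its level in vector cells without dox, at 4.44, 4.29 and 5.67 CPM. Pkp2 passed neither. In AJ ALK7-CA at 24 h, Dsg2 read 0.960, 0.0359 and 0.0337 CPM, where the first value is again that of the library with βTC3 transcripts. Emp2 fell in βTC3 with ALK7-CA at 24 h (-0.53, SE 0.05, adjusted p 7.15e-06) and with activin B from 71.8 ± 4.95 to 40.6 ± 2.55 CPM (SD, n = 3), by 0.81 on the log2 scale (SE 0.06, adjusted p 7.78e-05).

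Ncam1 and L1cam, of the Ig family, rose in AJ with ALK7-CA. Ncam1, the neural cell adhesion molecule that neuroendocrine cells share with neurons, went from 253, 204 and 230 to 525, 605 and 509 CPM with ALK7-CA at 24 h (log2 change 1.25, SE 0.09, adjusted p 9.42e-08) and from 213, 221 and 196 to 386, 382 and 341 CPM with activin B in AJ cells with ALK7 (0.82, SE 0.07, adjusted p 2.06e-06). In βTC3 it read 168, 182 and 165 against 165, 163 and 167 CPM at 24 h, and the difference between the lines was 1.18 (SE 0.12, adjusted p 5.87e-05). L1cam, which guides neurites and binds integrins, rose with ALK7-CA in AJ at 2 h from 31.2, 31.7 and 29.6 to 60.7, 54.9 and 51.9 CPM (0.85, SE 0.10, adjusted p 5.21e-05) and at 24 h by 0.78 (SE 0.10, adjusted p 2.24e-05). It also read higher in AJ cells with ALK7 and no ligand than in vector cells of batch 2 (34.4 ± 1.99 against 14.8 ± 0.113 CPM, SD, n = 3, log2 1.21, adjusted p 7.77e-07). L1cam in AJ vector cells of batch 1 without dox was near the level in those ALK7 cells, as given under Other observations. With activin B L1cam passed in neither AJ population. In βTC3 its rise at 24 h was 0.34 (adjusted p 0.0102, highest adjusted p 0.0558 with a library left out). Cadm1 rose in AJ at 2 h by 0.48 (SE 0.06, adjusted p 9.3e-05).

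Alcam was low in AJ. It read 0.141, 0.239 and 0.420 CPM in vector cells without dox and 2.11, 1.84 and 4.08 CPM after 24 h (log2 change 3.29, SE 0.67, adjusted p 0.0221, highest adjusted p 0.109 with a library left out). With ALK7-CA at 24 h it read 4.16, 1.00 and 0.875 CPM, and its change against the vector cells passed only without the library that holds βTC3 transcripts (-1.50, adjusted p 0.0194, against -0.42, adjusted p 0.574, with it). In βTC3 it rose by 0.35 with ALK7-CA at 24 h (adjusted p 0.0156) and by 0.31 with activin B (adjusted p 0.0163), each lost without any of 3 of the 6 libraries (highest adjusted p 0.0692 and 0.0684).

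CD44, the hyaluronan receptor, fell in 6 of the 7 comparisons. In βTC3 Cd44 (chr2:102811141-102901665, minus strand) went from 7.78, 7.36 and 8.06 to 4.72, 4.13 and 4.78 CPM with ALK7-CA at 24 h (log2 change -0.75, SE 0.13, adjusted p 0.000962) and from 7.26, 7.03 and 7.24 to 2.28, 1.81 and 2.58 CPM with activin B (-1.68, SE 0.14, adjusted p 0.00011). In AJ it fell with ALK7-CA from 1.89, 2.03 and 2.04 to 0.560, 0.359 and 0.505 CPM at 24 h (-2.06, SE 0.22, adjusted p 4.35e-06) and from 1.83, 1.86 and 2.16 to 0.986, 0.566 and 0.685 CPM at 2 h (-1.41, SE 0.20, adjusted p 0.000291). With activin B it fell from 3.34, 2.85 and 2.52 to 0.231, 0.675 and 0.164 CPM in AJ vector cells (-2.97, SE 0.35, adjusted p 7.31e-05) and from 1.62, 1.33 and 1.13 to 0.289, 0.193 and 0.283 CPM with ALK7 (-2.38, SE 0.40, adjusted p 0.000637). In all 6, every treated library was below every control. The exception was βTC3 at 2 h, at 14.1, 13.6 and 14.2 against 11.1, 11.6 and 12.9 CPM, which did not pass. The ALK7-CA effect at 24 h was larger in AJ (-1.31, SE 0.20, adjusted p 0.00101).

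Cd36 fell in all 4 AJ comparisons. With ALK7-CA it went from 1.29, 0.885 and 1.34 to 0.0400, 0.0359 and 0.0673 CPM at 24 h (log2 change -4.49, SE 0.53, adjusted p 1.27e-05) and with activin B from 5.65, 4.55 and 6.20 to 0.507, 0.405 and 1.25 CPM in vector cells (-2.95, SE 0.35, adjusted p 7.26e-05). In βTC3 it was below 1 CPM throughout. Its fall there at 24 h (-2.48, SE 0.55, adjusted p 0.00772) was against vector cells that had risen with dox, at 0.587, 0.505 and 0.915 CPM after 24 h and 0.0786, 0.319 and 0.0713 CPM without, and the ALK7-CA libraries read 0.180, 0.119 and 0.0389 CPM.

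Cd24a, a small lipid-anchored surface glycoprotein of islet progenitors and many tumours, moved in a direction that differed with line and stimulus. ALK7-CA at 24 h raised it in both lines, from 121, 127 and 124 to 283, 295 and 310 CPM in βTC3 (log2 change 1.27, SE 0.07, adjusted p 3.08e-08) and from 65.6, 72.4 and 75.1 to 286, 281 and 308 CPM in AJ (2.04, SE 0.08, adjusted p 5.09e-10). At 2 h it passed in neither line, and with the replicate block its log2 change of -0.24 in AJ did (adjusted p 0.00889). Activin B raised it in βTC3 from 68.7, 72.7 and 72.9 to 125, 124 and 133 CPM (0.84, SE 0.05, adjusted p 1.28e-05). In AJ it fell with activin B, from 171, 175 and 180 to 68.0, 67.9 and 70.0 CPM in vector cells (-1.36, SE 0.04, adjusted p 1.37e-09) and from 90.2, 82.1 and 83.9 to 46.0, 45.8 and 47.8 CPM with ALK7 (-0.87, SE 0.04, adjusted p 2.54e-08). The libraries did not overlap in any of these 5 comparisons, and the activin B effect differed between the lines by -2.19 (SE 0.06, adjusted p 1.51e-09). Untreated AJ vector cells of batch 2 held 175 ± 4.73 CPM and those of batch 1 held 69.0 ± 5.33 CPM (SD, n = 3), so the opposite directions in AJ start from different levels. Whether that bears on the direction was not tested. No source used here says how reads from copies of this gene elsewhere in the genome were counted.

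**Figure D4:**
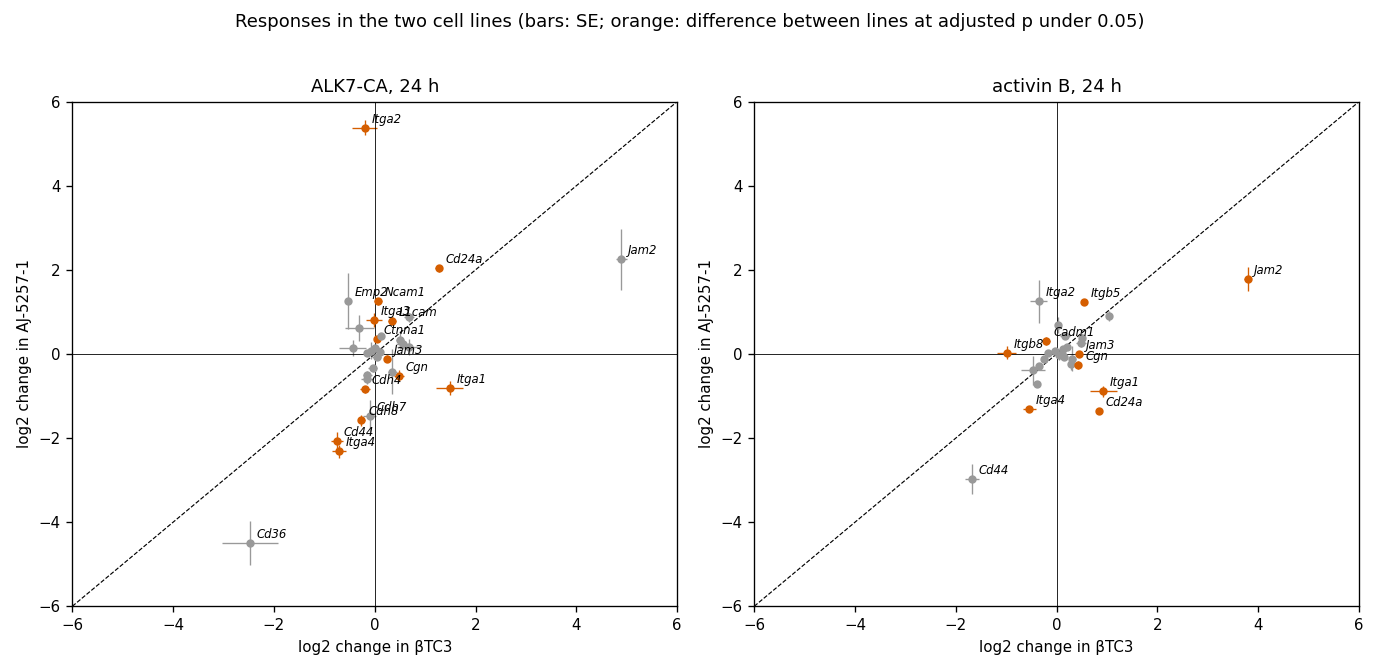
log2 change of each member in βTC3 (horizontal) and AJ vector-derived cells (vertical) with ALK7-CA at 24 h (left) and activin B (right). Points are genes tested in both lines, bars are SE, the dashed line marks equal responses, and orange marks genes whose responses differed between the lines at an adjusted p under 0.05. Itga2 stands alone at the top left of the ALK7-CA plot (5.38 in AJ, -0.20 in βTC3), and Itga1 and Cd24a lie below 0 in AJ and above 0 in βTC3 with activin B.

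Counted over all members, the responses of the lines to ALK7-CA at 24 h differed for 14 of 41 (7 in each direction, against 8.32% and 9.18% of all genes), and those to activin B for 9 of 41 (3 and 6, against 4.61% and 4.51%). The activin B effect in AJ cells with ALK7 differed from that in vector cells for 3 of 33 members (1 and 2, against 1.15% and 1.41%). Between 24 h and 2 h of ALK7-CA, 6 of 39 differed in βTC3 (2 and 4, against 3.68% and 2.17%) and 14 of 35 in AJ (7 and 7, against 10.8% and 10.2%). With the replicate block the count in βTC3 was 18 of 39, where 16.2% of all genes passed in either direction. Without AJ ALK7-CA 24 h replicate 1, 17 of 41 differed between the lines (13 of them also with it) and 13 of 35 between the times in AJ (12 also with it). Over all genes, leaving out any 1 library gave 2285 to 3247 calls between the lines, where 16194 were tested with all libraries. Between the times in AJ it gave 2613 to 3514, where 15487 were tested.

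Members also differed with dox alone, and between AJ cells with ALK7 and vector cells without ligand. After 24 h of dox alone, 6 of 39 members rose and 9 fell in βTC3 vector cells (10.6% and 12.7% of all genes), and 1 rose and 1 fell of 35 in AJ (1.43% and 1.27%). The largest falls in βTC3 were those of Itgb8 (13.1 ± 1.37 to 6.71 ± 0.603 CPM, SD, n = 3, log2 change -0.95, adjusted p 0.000115), Pkp2 (-0.79, adjusted p 0.00201), Cd44 (-0.70, adjusted p 0.00114) and Dsc2 (-0.69, adjusted p 0.0043). βTC3 vector cells of batch 2 without dox or ligand read Itgb8 and Cd44 near these levels after dox, as given above for activin B. Dsc2 and Pkp2 had 180 and 103 reads there, against 366 and 460 in batch 1 at somewhat higher depth. Whether the level without dox in batch 1 bears on these falls was not tested. With the replicate block the calls numbered 25 of 39 in βTC3 and 6 of 35 in AJ, where 45.3% and 10.4% of all genes passed in either direction. The vector cells after 24 h of dox are also the controls of the ALK7-CA comparisons at 24 h, so the results share libraries. In AJ cells with ALK7 and no ligand, against vector cells without dox, 12 of 33 members were higher and 9 lower (14.5% and 14.6% of all genes). Itga3 (2.80 ± 0.155 against 0.918 ± 0.0248 CPM), Itgb5 (30.5 ± 1.87 against 10.6 ± 0.504 CPM), Itga8 (3.37 ± 0.260 against 1.43 ± 0.0931 CPM) and F11r (4.98 ± 0.592 against 2.13 ± 0.0748 CPM) were the largest rises (SD, n = 3). Plasmid and dox cannot be told apart in this comparison, whose control is the batch 2 vector cells. AJ vector cells of batch 1 without dox read Itgb5 and Itga8 near, and Itga3 above, the levels in the cells with ALK7. Their F11r level lay between those of the groups compared. Whether the level of the batch 2 control bears on these rises was not tested.

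Genes that work with the members were described from 8 lists with 115 genes, chosen with earlier results of these data known. Their counts with ALK7-CA at 24 h stand beside 8.02% of all genes that rose and 5.48% that fell in βTC3, and 20.8% and 19.9% in AJ. Of 18 matrix ligands of integrins, 3 rose and 2 fell of 15 tested in βTC3 with ALK7-CA at 24 h, and 6 rose and 3 fell of 12 in AJ. Lamb1, the laminin β1 chain, passed in all 3 activin B comparisons and in both at 24 h of ALK7-CA: in AJ it went from 2.06 ± 0.137 to 85.3 ± 4.77 CPM with ALK7-CA (SD, n = 3, log2 change 5.37, adjusted p 2.06e-12), and in βTC3 from 2.85 ± 0.157 to 26.0 ± 0.550 CPM (3.20, adjusted p 4.75e-09). With activin B it rose 10.4-fold in βTC3, 7.67-fold in AJ vector cells and 10.1-fold in AJ cells with ALK7. In βTC3 at 24 h Lama1 rose 3.28-fold and Lamb3 25.6-fold.

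Of 21 focal adhesion adaptors, which join integrins to actin, 3 rose and 2 fell of 19 in βTC3 with ALK7-CA at 24 h and 7 rose and 4 fell of 20 in AJ. Tns3, which encodes tensin 3, fell in both and in all 3 activin B comparisons, most in AJ cells with ALK7 (145 ± 1.80 to 50.3 ± 3.41 CPM, SD, n = 3, log2 change -1.52, adjusted p 1.85e-09). Of 20 other tight junction genes, 1 rose and 3 fell of 15 in βTC3 and 3 rose and 6 fell of 15 in AJ with ALK7-CA at 24 h. Marveld3, a tetraspan relative of occludin, fell in both and with activin B in all 3 populations, for example from 5.90 ± 0.887 to 1.48 ± 0.180 CPM in AJ with ALK7-CA (log2 change -2.0, adjusted p 9.15e-08). Pard3, a polarity scaffold, fell in βTC3 with ALK7-CA at 24 h (-0.87, adjusted p 2.33e-07) and with activin B (-1.29, adjusted p 3.82e-06). In AJ its change with ALK7-CA at 24 h was -0.08 (adjusted p 0.326).

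Of 15 other Ig-family genes, 6 rose and 2 fell of 11 in AJ and 3 rose and 2 fell of 13 in βTC3 with ALK7-CA at 24 h. Mcam (CD146) rose in AJ from 5.47 ± 0.511 to 37.4 ± 1.27 CPM (SD, n = 3, log2 change 2.77, adjusted p 5.05e-11). Of 10 tetraspanins and EMP relatives, all tested, 5 rose and 3 fell in AJ and 2 rose and 1 fell in βTC3, with Cd151, which partners laminin-binding integrins, at 1.11 in AJ (adjusted p 5.38e-08). Of 13 other adherens junction genes, all tested, 4 rose and 2 fell in AJ, led by Afdn (afadin, 0.86, adjusted p 1.57e-07), and 1 rose in βTC3. Of 8 other desmosome genes, 2 fell of 4 tested in βTC3 and 1 fell of 3 in AJ, and of 10 gap junction genes 1 fell of 2 in βTC3 and 1 rose and 1 fell of 3 in AJ. The falling gap junction gene in both was Gjd2, the connexin 36 that couples islet beta cells (-0.23, adjusted p 0.0235, and -0.90, adjusted p 7.18e-05).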

How the data were processed

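RNA of 48 libraries in 16 groups of 3 was measured by poly(A) sequencing with a stranded kit, per the labels' protocols. The values used are whole-number read counts per Ensembl gene, deposited by the authors. Per the submitters' processing notes the tools include featureCounts 1.4.4, HISAT2, cutadapt 1.4.2, bcl2fastq 2.17 and edgeR, with the genome mm10. No source used here gives the strand setting or the annotation release. A deposited normalized table was not used because its scaling is not stated.

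Groups came from the sample labels. Of 39017 identifiers, 37607 matched a symbol in GENCODE M21 (GRCm38). Counts were fitted over all genes with edgeR 4.0.16 in R 4.3.3 (quasi-likelihood F test, TMM scaling, filterByExpr with a minimum count of 10, a minimum total of 15 and a proportion of 0.7). P-values were adjusted over all genes tested by Benjamini-Hochberg, with a threshold of 0.05. Treatment comparisons were fitted on all libraries of 1 line and batch, differences between lines on the 12 libraries concerned, and lines on 6. A standard error (SE) is the log2 change divided by the root of F. CPM uses TMM library sizes over all 48 libraries. Counting intervals are exact at 95% and cover counting error only.

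Other settings tried were RLE scaling, DESeq2 1.42.0, a filter of 1 CPM in 3 libraries or none, a replicate block, a fit on only the groups compared, and each library left out. The same-numbered libraries' deviations from their group means correlated over 0.1 in every pair, over 8842 genes, in all 4 βTC3 treatment comparisons (r from 0.109 to 0.792), in AJ ALK7-CA at 2 h (0.222 to 0.595), in AJ dox at 24 h (0.378 to 0.720) and between the lines (0.133 to 0.726). In those the replicate numbers, which the labels give, were taken to pair libraries, by the rule that every pair's r exceeds 0.1. Every library correlated best with its own number only between the lines in batch 2, and the labels name no shared day or culture behind the numbers. They did not in AJ ALK7-CA at 24 h (lowest r 0.0924), AJ activin B (0.00707), AJ ALK7 activin B (-0.0936) or AJ ALK7 without ligand (-0.0108). The tests were tried on simulated counts with known changes.

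All members may be named with their levels. Full statistics were given by rule for up to 6 rises and 6 falls per receptor or ligand comparison and up to 4 and 4 in others, and for up to 3 genes per pathway list. Members, lists and rules were chosen with earlier results of these data known.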

Additional observations from a re-analysis of the deposited data

Results flagged for a closer look

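Differences between responses passed the edgeR quasi-likelihood test (adjusted p under 0.05) for the members below, each given as a difference of log2 changes from groups of 3 libraries. For ALK7-CA at 24 h, AJ minus βTC3, the differences were 5.58 for Itga2, 2.27 for Itgb4, 1.18 for Ncam1 and 0.83 for Itga3 upward. They were -2.31 for Itga1, -1.61 for Itga4, -1.32 for Cdh8 and -1.31 for Cd44 downward. Without AJ ALK7-CA 24 h replicate 1, the library with βTC3 transcripts, these 8 stayed past the threshold, for example Itga2 at 5.57 and Cdh8 at -1.52. Itgb4 lost its call without any of 3 other libraries, AJ ALK7-CA replicate 2, AJ vector replicate 2 or βTC3 vector replicate 1 (highest adjusted p 0.0895).

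For activin B, AJ minus βTC3, the differences were 1.04 for Itgb8, 0.70 for Itgb5 and 0.51 for Cadm1, and -2.19 for Cd24a, -2.01 for Jam2, -1.81 for Itga1 and -0.78 for Itga4. Those of Itgb8 and Cadm1 were lost without any of 6 and 2 of the 12 libraries (highest adjusted p 0.0674 and 0.0681). For activin B in AJ cells with ALK7 minus AJ vector cells they were 0.49 for Cd24a, -0.95 for Cdh8 and -0.86 for Itga4. The positive value for Cd24a is a smaller fall in the cells with ALK7.

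For ALK7-CA at 24 h minus 2 h in βTC3, the differences were 3.91 for Jam2 and 1.35 for Cd24a, and -0.99 for Cd44, -0.48 for Dsg2, -0.42 for Cdh8 and -0.39 for Emp2. That of Cdh8 was lost without any of 3 of the 12 libraries (highest adjusted p 0.0723). In AJ they were 5.33 for Itga2, 4.47 for Jam2, 2.28 for Cd24a and 0.70 for Ncam1, and -1.49 for Itga4, -1.29 for Itga8, -1.01 for Cdh4 and -0.98 for Itgb3. Without AJ ALK7-CA 24 h replicate 1 the Jam2 difference was 2.41 (adjusted p 0.000244).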

How the results depend on the processing

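Of 8417 log2 changes of members under the alternatives, 8057 kept their side of the threshold, 191 lost a call and 169 gained one. The sign differed from that reported in 217 of the 8057, of which 0 were past the threshold with either setting. The number of members called with ALK7-CA at 2 h in βTC3 was 1, against 2 with DESeq2 and 8 with the replicate block. With dox at 24 h it was 15 in βTC3 (25 with the replicate block) and 2 in AJ, where DESeq2 gave 4, the replicate block 6, only the groups compared 1, and leaving out 1 library from 1 to 4. For 24 h minus 2 h in βTC3 it was 6, against 18 with the replicate block. Leaving out 1 library gave 15 to 17 members in βTC3 with ALK7-CA at 24 h (18 with all), 20 to 23 in AJ (22), 15 to 21 in βTC3 with activin B (22), 12 to 16 in AJ (15) and 15 to 21 in AJ ALK7 without ligand (21). The calls over all genes in the same order were 1619 to 1866 (2134 with all), 5347 to 6477 (6305), 2174 to 3046 (3210) and 2643 to 3144 (3348). For AJ ALK7 without ligand they were 3556 to 3965, against 2150 rises and 2169 falls with all libraries. Over all genes, the replicate block moved the calls from 2134 to 4410 (βTC3 ALK7-CA 24 h), 241 to 1136 (βTC3 2 h), 2443 to 3895 (AJ 2 h), 3674 to 7165 (βTC3 dox), 419 to 1603 (AJ dox), 381 to 623 (activin B in AJ ALK7 minus vector), 924 to 2553 and 3246 to 4954 (24 h minus 2 h in βTC3 and AJ). For βTC3 at 2 h DESeq2 gave 375 genes, no low-count filter 150, only the groups compared 31 and leaving out 1 library 77 to 208. For AJ dox the same settings gave 837, 210, 20 and 116 to 678. For βTC3 dox only the groups compared gave 2135, and for activin B in AJ ALK7 minus vector leaving out 1 library gave 239 to 363. The cause of these shifts was not tested. Where the numbers did not pair the libraries, the block gave 24 members called in AJ with ALK7-CA at 24 h, 18 with activin B in each AJ population and 23 without ligand, beside 52.3%, 28.0% (vector), 39.0% (ALK7) and 34.8% of all genes. Members under about 1 CPM rest on few reads per library.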

Other observations

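AJ vector cells without dox or ligand were sequenced in both batches, and several members read at different levels in them. Batch and any difference between the cultures cannot be told apart, so these values carry no test. Cd24a read 63.0, 70.9 and 73.2 CPM in batch 1 and 171, 175 and 180 CPM in batch 2. Itga4 averaged 17.9 and 41.2 CPM, Cdh7 5.16 and 17.0 CPM and Cd36 1.07 and 5.47 CPM in batches 1 and 2. Itga3 went the other way, at 5.35, 4.60 and 4.20 CPM in batch 1 and 0.890, 0.933 and 0.933 CPM in batch 2, as did Itgb5 (means of 30.9 and 10.6 CPM) and L1cam (32.1 and 14.8 CPM). Cldn15 read 5.77, 5.93 and 5.88 CPM in AJ and 0.157, 0.319 and 0.178 CPM in βTC3 in batch 1. In batch 2 it read 0.756, 1.37 and 0.549 CPM in AJ and 1.07, 0.913 and 0.912 CPM in βTC3, so the order of the lines seen in batch 1 was absent there.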
